A study of Arabidopsis thaliana with 141 samples.

Results

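The response of wild-type (WT) Arabidopsis thaliana seedlings to wounding was measured by RNA-seq in 6 of the 141 libraries of the series, 3 from wounded and 3 from unstimulated seedlings, and every gene was examined. The 6 libraries were chosen by their labels alone, as the wounded and the unstimulated WT groups of the set that the labels call B2. All seedlings were WT, 7 days old and grown in liquid medium under 12 h of light and 12 h of dark. All of them, controls included, had received 10 uM 3MBiP for 15 min, the inhibitor that the study paired with its impk36 and impk4 lines. The wounded group was then wounded with forceps and, as the labels state for the stimuli, left for 1 h. No such hour is stated for the unstimulated controls, so time in 3MBiP, time of day and handling may differ between the groups. No wounded library without 3MBiP was analysed here. Each RNA came from 8 whole seedlings pooled, so cells at the wound and cells far from it were read together. WT seedlings of B2 given 2 nM flg22 for 1 h, and WT seedlings of set B1 given 50 uM methyl jasmonate (MeJA) or 20 uM abscisic acid (ABA) for 1 h, each group with 3 libraries, serve below as points of comparison. These groups carried the same age, pretreatment and pooling.

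Total gene counts were 17818801, 16902455 and 26768373 in unstimulated libraries 1 to 3 and 17844378, 17894948 and 25741624 in wounded libraries 1 to 3. Wounded library 1 stood apart in its alignments that were not unique, 12.8% against 6.47 to 7.63% in the other 5, and in mitochondrial genes, 0.0713% of counts against 0.0204 to 0.027%. The effect of leaving it out is given where it matters. Within a group the median standard deviation of log2 CPM was 0.101 (unstimulated) and 0.0845 (wounded). Leaf and root genes were both read in every library: 19 photosynthesis genes summed to 34810 to 35740 CPM in unstimulated seedlings, and all 6 root markers passed the filter on low counts. Of 5 floral genes, AP1 and AP3 had at most 7 counts in any library, whereas SEP3 was read at 55.6 CPM. Levels are given as CPM, gene counts divided by library size as scaled by TMM, in the usual per-million unit. Fold changes are on the log2 scale, 3 libraries against 3, and differences between responses use libraries of both B1 and B2. Where ± follows, it gives a standard error, the size of the change divided by the square root of its F value. The F value comes from the test named next, whose spread is estimated over all libraries fitted together. An adjusted p comes from edgeR's quasi-likelihood F test with Benjamini-Hochberg adjustment over all genes tested. A gene is said to have risen or fallen where that adjusted p was under 0.05, and to have changed by over 2-fold where edgeR's test against a fold of 2 gave an adjusted p under 0.05. Nothing in the labels says that replicates came from separate cultures, so p-values measure the spread between these libraries, which may be technical.

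As background, crushed plant cells release calcium waves, peptides and ATP, and within minutes the plastids of damaged and connected tissue begin to turn linolenic acid into jasmonates. The conjugate jasmonoyl-isoleucine binds the receptor COI1 together with a JAZ repressor, the JAZ protein is destroyed, and MYC transcription factors are freed. Their targets include the genes of jasmonate synthesis, the JAZ genes themselves and the enzymes that break the hormone down. Ethylene, abscisic acid, MAP kinases and pattern recognition receptors act in the same tissue.

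Wounding changed 11369 of 21223 tested genes (53.6%), of which 6101 rose (28.7%) and 5268 fell (24.8%). Most of the large changes were increases. By over 2-fold, 1788 genes changed (8.42%): 1582 rose (7.45%) and 206 fell (0.971%). At fitted folds of at least 4 there were 994 rises and 69 falls, at least 8 there were 529 and 9, and at least 16 there were 287 and 0. The genes that rose by over 2-fold took 2.52, 2.64 and 2.60% of the gene counts of the unstimulated libraries and 11.2, 11.0 and 11.1% of those of the wounded ones. All 3 wounded libraries lay above all 3 unstimulated ones for 6649 genes (31.3%) and below them for 5875 (27.7%). In whole-seedling RNA, a fall in a gene cannot be told apart from a loss of the cells that express it. The split between rises and falls depends on scaling. With library size alone, in place of TMM, 5046 genes rose and 7076 fell, the median over all genes moving from 0.0077 to -0.078, while the over-2-fold counts were 1473 and 258.

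**Figure D1:**
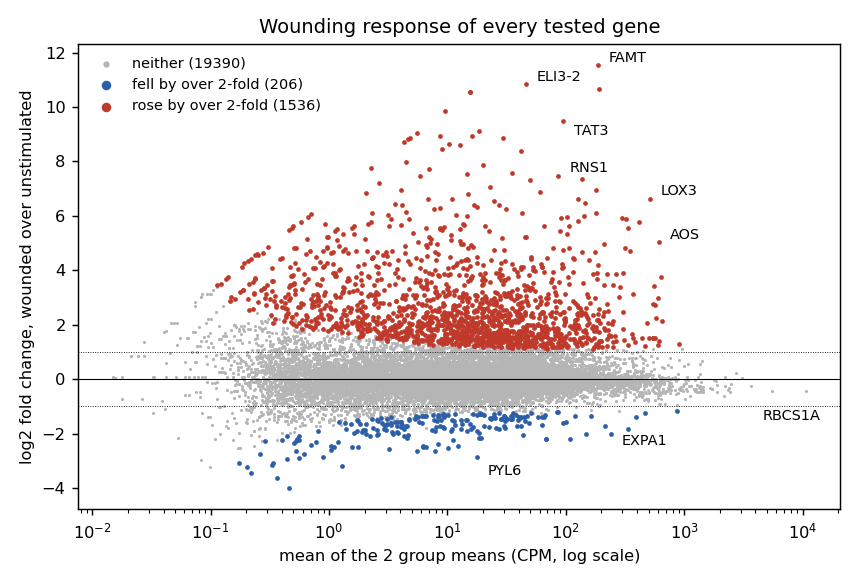
Each point is 1 of 21132 genes with counts in both groups, by the mean of the unstimulated and wounded mean levels (CPM, log axis) and the log2 fold change of wounded over unstimulated seedlings (3 libraries each). Genes that rose by over 2-fold (1536 shown) reach a log2 fold change above 11 at FAMT, whereas those that fell by over 2-fold (206) end near -4, and dotted lines mark a fold of 2.

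The 5 steepest rises among genes with a symbol and a mean of at least 5 CPM were in TPS04, FAMT, DAD1, ELI3-2 and TAT3. FAMT (AT3G44860, chr3:16379571-16381434), on the TAIR10.1 assembly, encodes a carboxyl methyltransferase and read 0, 0.164 and 0.172 CPM in the unstimulated libraries and 366, 382 and 376 CPM in the wounded ones. It went from nearly silent to abundant in all 3 wounded libraries, a log2 fold change of 11.54 ± 0.36 (edgeR adjusted p = 9.32e-20). TPS04 (AT1G61120, chr1:22523635-22528836), the synthase of geranyllinalool, had 0 counts in all 3 unstimulated libraries and 27.6, 26.2 and 28.8 CPM in the wounded ones. Against the 0.0451 CPM that 3 counts over the unstimulated libraries would give, the mean of 27.5 CPM was at least 611-fold higher. CYP82G1 (AT3G25180), the cytochrome P450 that turns the product of TPS04 into the homoterpene TMTT, read 0.104, 0.109 and 0 CPM and, after wounding, 24.9, 24.5 and 27.1 CPM. The next step of the same volatile route thus rose too (8.60 ± 0.27). TAT3 (AT2G24850), a tyrosine aminotransferase, read 0, 0.492 and 0.275 CPM without and 196, 179.6 and 189.6 CPM with wounding (9.50 ± 0.41). ELI3-2, an alcohol dehydrogenase, had 3 counts in all unstimulated libraries together against 102, 85.3 and 90.2 CPM after wounding, a ratio of 2046 (95% interval 699.7 to 9924), where intervals are exact and cover counting error only.

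Jasmonate synthesis rose at almost every step. Of 20 listed genes 19 passed the filter, 17 rose, 0 fell and 14 rose by over 2-fold, and the median log2 fold change was 3.76 against 0.0077 over all genes. At the entry, DAD1 (AT2G44810), a lipase that frees linolenic acid, had 0 unstimulated counts and 11.4, 10.3 and 10.2 CPM after wounding, at least 236-fold higher. The lipoxygenase LOX3 (AT1G17420) read 10.4, 10.5 and 10.1 CPM in unstimulated and 1061, 1011 and 986 CPM in wounded seedlings. All 3 wounded libraries lay far above all 3 unstimulated ones, and LOX3 rose by 6.62 ± 0.14 (edgeR adjusted p = 1.75e-25). LOX4 rose from 4.09 to 207 CPM and LOX2, the lipoxygenase that makes most jasmonate in wounded leaves, from 134 to 1066 CPM (log2 5.64 ± 0.20 and 2.99 ± 0.13). LOX6, the enzyme tied to the earliest jasmonate in wounded leaves, moved least of the 4, from 29.7 to 108 CPM (1.87 ± 0.089).

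The next enzymes showed the same separation. AOS (AT5G42650), allene oxide synthase, read 32.6, 41.6 and 34.9 CPM and then 1199, 1191 and 1176 CPM. No unstimulated library came near a wounded one, and the gene rose by 5.03 ± 0.12 (edgeR adjusted p = 3.50e-24). Among the 4 allene oxide cyclases AOC1 rose by 5.56 ± 0.10, AOC3 by 5.89 ± 0.14 and AOC2 by 3.76 ± 0.079, while AOC4 rose by only 0.71 ± 0.079. AOC1 and AOC2 are near-identical in sequence, and reads that matched both were not counted. OPR3 (AT2G06050), which reduces the intermediate OPDA in the peroxisome, read 24.1, 28.1 and 24.1 CPM before and 677, 658 and 672 CPM after wounding, again without overlap (4.72 ± 0.10). OPCL1, the ligase that activates its product, rose from 22.1 to 320.0 CPM. The beta-oxidation end was flatter: ACX1 rose by 1.58 ± 0.077, the transporter PXA1 by 0.32 ± 0.063, while AIM1 (0.061) and ACX5 (-0.049) did not pass the test. JAR1 (AT2G46370), which conjugates jasmonic acid to isoleucine, read 59.0, 59.8 and 60.4 CPM and then 308, 314 and 315 CPM (2.38 ± 0.072). The side branch enzyme HPL1, a hydroperoxide lyase that feeds green leaf volatiles, rose from 0.310 to 11.0 CPM.

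Most JAZ repressor genes rose, while the receptor gene fell slightly. Of 22 listed perception and repressor genes, 16 rose, 2 fell and 14 rose by over 2-fold (median log2 fold change 3.17). COI1, the receptor, read 38.4, 41.5 and 41.5 CPM without and 34.6, 31.5 and 33.7 CPM with wounding, a small fall with no overlap (-0.28 ± 0.057). JAZ10 (AT5G13220), a repressor that is a standard reporter of jasmonate, read 2.92, 3.01 and 2.71 CPM in unstimulated and 351, 353 and 357 CPM in wounded libraries. The groups were separated by a wide gap, with a rise of 6.95 ± 0.20 (edgeR adjusted p = 5.57e-21). Increases of at least 4 on the log2 scale were also fitted for JAZ7 (6.82 ± 0.31), JAZ5 (6.09 ± 0.19), JAZ9 (5.92 ± 0.11), JAZ1 (4.83 ± 0.15) and JAZ6 (4.20 ± 0.11). JAZ8 had 2 counts in all unstimulated libraries together and read 17.2, 16.5 and 18.2 CPM after wounding, a ratio of 579.8 (95% interval 160.1 to 4794). AT3G22275, annotated as a jasmonate ZIM-domain protein, had the largest fitted rise of this list. It had 1 count in all unstimulated libraries together and read 30.7, 31.5 and 31.0 CPM after wounding, a ratio of 2069 (95% interval 371 to 81747). JAZ2, JAZ3 and JAZ12 rose by 3.89 ± 0.10, 3.25 ± 0.092 and 1.46 ± 0.053. JAZ4 (-0.30) and JAZ11 (0.0072) did not pass the test, so 11 of the 13 listed JAZ genes rose and 2 had no call.

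The transcription factors of the pathway differed as well. MYC2 (AT1G32640), the main activator, read 31.0, 38.4 and 33.7 CPM and then 382, 392 and 373 CPM (3.48 ± 0.091). Its relatives moved little: MYC3 rose by 0.59 ± 0.048 and MYC4 fell by 0.67, from 21.1 to 13.3 CPM. JAM1 and JAM2, bHLH factors that compete with the MYC proteins, rose by 3.09 ± 0.12 and 1.32 ± 0.088, and JAM3 (0.044) did not pass the test. The adaptor NINJA, which ties JAZ proteins to the corepressor TPL, rose by 0.73 ± 0.053, and TPL itself stayed at 202 and 202 CPM.

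Enzymes that break jasmonates down rose most as a group. Of 11 listed genes 10 rose, 0 fell, all 10 by over 2-fold, and the median was 5.99. CYP94C1 (AT2G27690), the oxidase that carboxylates jasmonoyl-isoleucine, read 2.04, 1.81 and 1.27 CPM unstimulated and 291, 263 and 265 CPM wounded. All 3 wounded libraries were over all 3 others, with 7.37 ± 0.16 (edgeR adjusted p = 8.50e-25). The hydroxylases CYP94B3 and CYP94B1 rose by 6.62 ± 0.22 and 5.99 ± 0.18. The amidohydrolases ILL6 and IAR3, which split the conjugate, rose from 5.23 to 357 CPM and from 38.2 to 567 CPM. The sulfotransferase ST2A rose by 3.50 ± 0.17. Among the jasmonic acid oxidases, which hydroxylate the free acid, AT2G38240 read 0.157, 0.164 and 0.309 CPM and then 395, 373 and 370.0 CPM. That gene went from a trace to a high level in every wounded library (10.68 ± 0.22). JRG21 rose by 8.87 ± 0.24 and AT5G05600 by 5.78 ± 0.13, whereas the fourth, AT3G11180, was near 0.3 CPM in both groups (0.270 and 0.247 CPM) and did not pass the test.

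**Figure D2:**
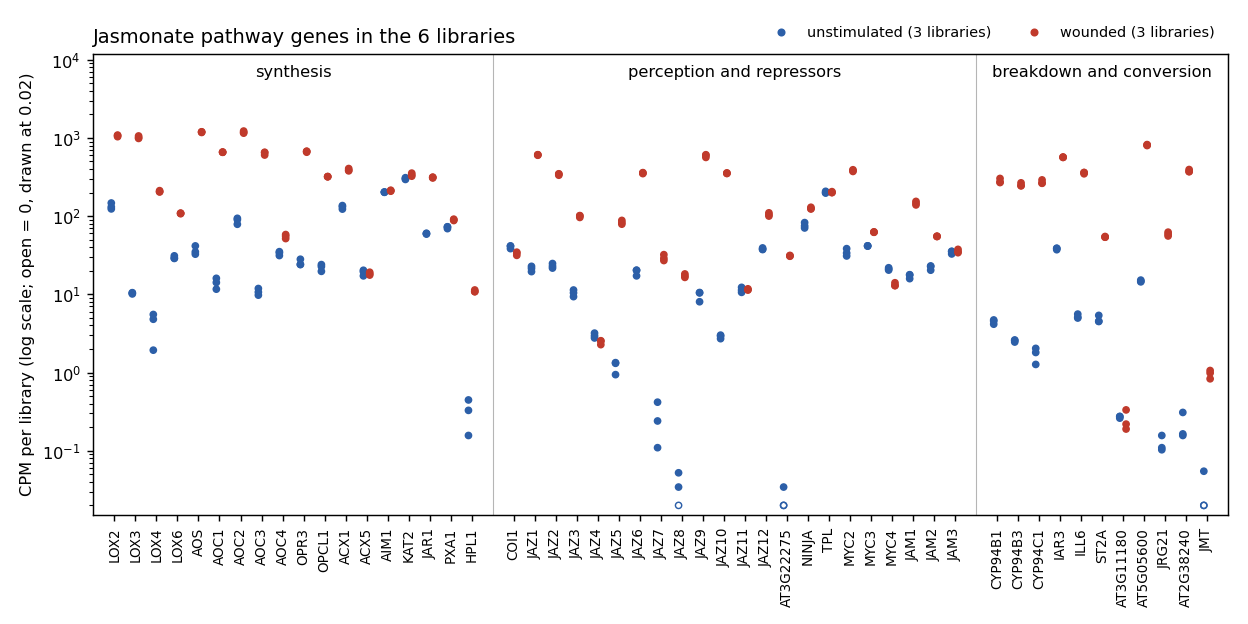
Levels of 51 genes of jasmonate synthesis, perception and breakdown in each of the 6 libraries (CPM, log axis), with unstimulated libraries in blue and wounded ones in red and open symbols for 5 readings of 0. Wounded libraries lie above unstimulated ones for most genes of all 3 panels, while COI1, JAZ4, JAZ11, TPL, JAM3, AIM1, ACX5 and AT3G11180 overlap or sit side by side.

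Downstream of the hormone, 15 of the 16 passing output and wound protein genes rose, 0 fell and 13 rose by over 2-fold (median 3.88). VSP2 (AT5G24770), an acid phosphatase that is a classic wound marker, read 0.366, 0.383 and 0.412 CPM and then 18.9, 15.8 and 17.9 CPM. It was low in all 3 unstimulated libraries and rose by 5.47 ± 0.23. CLH1, a chlorophyllase, rose from 13.4 to 342 CPM, and PGIP2, an inhibitor of fungal polygalacturonase, from 7.19 to 204 CPM. The lectin gene JR1 rose by 2.06 ± 0.05 and the trypsin inhibitor KTI1 by 1.33 ± 0.14. ERF1 and ORA59, activators of the branch shared with ethylene, rose by 6.40 ± 0.35 and 3.08 ± 0.16, while their target PDF1.2 and the thionin THI2.1 did not pass the filter. The myrosinase TGG1 was the passing member without a call, at 828 and 948 CPM.

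The start-site regions of 6 of these genes are shown so that the letters of jasmonate genes (JAZ10, LOX3, AOC1 and OPR3) can be read beside those of the 2 steepest ranked rises, TPS04 and FAMT. Each is the 250 bases before the annotated start in TAIR10.1 (RefSeq), written 5′ to 3′ on the gene's strand, with capitals for CACATG on either strand. That hexamer is one of the G-box-like letters that MYC factors are known to bind. JAZ10 lies at chr5:4218536-4218785, LOX3 at chr1:5977073-5977322, AOC1 at chr3:9403529-9403778, TPS04 at chr1:22523385-22523634 and FAMT at chr3:16379321-16379570, all on the + strand, and OPR3 at chr2:2362376-2362625 on the - strand.
JAZ10: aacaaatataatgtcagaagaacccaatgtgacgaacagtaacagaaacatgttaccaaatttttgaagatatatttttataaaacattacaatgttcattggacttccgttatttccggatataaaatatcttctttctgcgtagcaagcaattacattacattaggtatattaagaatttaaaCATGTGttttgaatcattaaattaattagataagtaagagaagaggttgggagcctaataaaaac
LOX3: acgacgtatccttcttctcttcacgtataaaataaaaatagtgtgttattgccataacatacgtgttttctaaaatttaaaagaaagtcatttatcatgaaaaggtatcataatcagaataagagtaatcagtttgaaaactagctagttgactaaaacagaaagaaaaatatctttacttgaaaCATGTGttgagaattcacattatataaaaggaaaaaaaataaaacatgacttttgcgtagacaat
AOC1: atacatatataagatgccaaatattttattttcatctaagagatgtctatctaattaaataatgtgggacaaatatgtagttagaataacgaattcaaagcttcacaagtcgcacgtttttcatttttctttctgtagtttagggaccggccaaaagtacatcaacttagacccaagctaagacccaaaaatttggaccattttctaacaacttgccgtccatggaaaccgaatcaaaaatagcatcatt
OPR3: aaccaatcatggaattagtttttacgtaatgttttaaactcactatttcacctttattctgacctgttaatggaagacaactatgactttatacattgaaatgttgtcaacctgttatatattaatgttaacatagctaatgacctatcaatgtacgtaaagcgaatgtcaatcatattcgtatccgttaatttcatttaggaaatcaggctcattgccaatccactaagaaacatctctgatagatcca
TPS04: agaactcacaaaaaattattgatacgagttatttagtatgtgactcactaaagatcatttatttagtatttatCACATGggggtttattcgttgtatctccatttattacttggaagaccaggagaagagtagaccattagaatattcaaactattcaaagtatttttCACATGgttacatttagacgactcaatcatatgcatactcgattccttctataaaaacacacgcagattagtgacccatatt
FAMT: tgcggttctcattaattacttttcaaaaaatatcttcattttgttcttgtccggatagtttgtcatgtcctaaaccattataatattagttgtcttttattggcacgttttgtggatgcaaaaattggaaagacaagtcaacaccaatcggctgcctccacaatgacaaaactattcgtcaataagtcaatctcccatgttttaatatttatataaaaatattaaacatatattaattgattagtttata
JAZ10 and LOX3 each hold the hexamer 65 bases before the start and TPS04 holds it 177 and 82 bases before, and these letters are not in the windows of AOC1, OPR3 and FAMT. None of the 6 windows holds the G-box CACGTG. In the 300 bases around the start (250 before, 50 after), CACATG on either strand was in 275 of 1568 genes that rose by over 2-fold (17.5%), in 36 of 200 that fell (18.0%) and in 13.0% of all 20644 promoters. CACGTG was in 14.3% of the rising, 4.5% of the falling and 8.65% of all promoters. ACGTGT, a core shared with ABA-response elements and overlapping CACGTG by 5 letters, was in 24.3, 14.0 and 13.2%. The rapid stress letters CGCGTT, read by calmodulin-binding CAMTA factors, were in 8.29, 3.5 and 3.82%, and the W-box letters TTGACC, read by WRKY factors, in 20.2, 8.5 and 14.5%. TGGGCC, common before genes of ribosome and growth function, was in 7.40, 6.0 and 18.2%. These shares describe letters, not bound sites. Called at an adjusted p under 0.05 alone, genes that rose held CACGTG and CGCGTT at lower shares, given with the alternatives at the end.

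Genes for the perception of damage rose in most cases. Of 21 listed, 15 rose, 2 fell and 9 rose by over 2-fold. These shares were 71.4, 9.52 and 42.9%, against 28.7, 24.8 and 7.45% of all genes. PEPR1 (AT1G73080), the receptor of the Pep danger peptides, read 30.3, 27.1 and 27.1 CPM and then 149, 149.7 and 150.5 CPM. Its wounded libraries were all far higher (2.41 ± 0.094), and PEPR2 rose by 2.85 ± 0.18. Among the peptide precursors PROPEP4 rose most, from 0.947 to 13.9 CPM (3.87 ± 0.28), with PROPEP3 (3.20 ± 0.40) and PROPEP1 (1.67 ± 0.17), while PROPEP5 (0.60) did not pass the test. DORN1, the receptor for extracellular ATP, rose from 28.3 to 108 CPM. The glutamate receptor-like channel GLR3.3, which carries the wound signal between leaves, rose by 0.81 ± 0.061, and GLR3.6 (-0.14) did not pass. Of the NADPH oxidases RBOHD rose by 1.52 ± 0.086 and RBOHF by 1.11 ± 0.084. WAK2, a receptor kinase bound to pectin, fell from 29.4 to 7.47 CPM.

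Touch and calcium genes all moved in one direction: 14 of 14 rose and 8 rose by over 2-fold (median 2.27). Over all genes 28.7% rose and 7.45% rose by over 2-fold. CML39 (AT1G76640), a calmodulin-like protein, read 0, 0.219 and 0 CPM in unstimulated and 35.7, 35.9 and 38.2 CPM in wounded seedlings. It was at 0 in 2 of the unstimulated libraries and well read in all 3 wounded ones (9.12 ± 0.45). TCH3 (AT2G41100), a calmodulin-like gene found by its response to touch, was already present and rose from 60.8 ± 12.0 to 497 ± 34.9 CPM (SD, n = 3 each). CML37 and CML38 rose by 5.56 ± 0.32 and 4.48 ± 0.20. TCH4, a cell wall hydrolase, rose by 2.85 ± 0.17 and its relative XTH23 by 2.18 ± 0.17. The calmodulin-binding activators CAMTA1, CAMTA2 and CAMTA3 rose by 0.31 ± 0.057, 0.58 ± 0.058 and 0.61 ± 0.072.

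Of 28 early transcription factors, 26 rose and 22 rose by over 2-fold, CBF3 being the member that fell. RRTF1 (AT4G34410), an ERF factor of the redox response, read 0.0522, 0.0547 and 0.0686 CPM and then 32.1, 32.4 and 32.0 CPM. It had 4 counts in all unstimulated libraries and was well read in every wounded one (8.94 ± 0.41). MYB15 (AT3G23250) read 0.522, 0.383 and 0.240 CPM without and 71.3, 67.1 and 72.4 CPM with wounding (7.58 ± 0.26), and NAC019 (AT1G52890), which acts in both jasmonate and ABA responses, 0.575, 0.602 and 0.652 and 94.9, 106 and 98.8 CPM (7.33 ± 0.18). In both, no unstimulated library reached a wounded one. WRKY40, a brake on defence, rose from 2.86 to 180.4 CPM and RAP2.6 from 4.44 to 249 CPM. The zinc finger repressors ZAT10, ZAT6 and ZAT12 rose by 3.91 ± 0.17, 3.08 ± 0.12 and 3.02 ± 0.19. CBF3, a cold regulator, fell from 0.870 ± 0.442 to 0.0494 ± 0.00994 CPM (SD, n = 3 each), while CBF2 (0.69) did not pass the test.

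Over all genes tested 28.7% rose and 24.8% fell. By family name in the annotation, 37 of 63 passing WRKY genes rose and 10 fell, 27 and 2 by over 2-fold. WRKY40 (5.92), WRKY38 (5.89) and WRKY75 (4.66) were high among them, and WRKY60, a partner of WRKY40, fell by 1.72. Of 44 passing ERF and DREB factors 31 rose and 4 fell, with ERF13 (5.22 ± 0.28) and ERF2 (4.05 ± 0.11) beside those named. Among 96 MYB factors 38 rose and 20 fell, shares of 39.6 and 20.8%. MYB95 rose from 1.74 to 48.2 CPM, and MYB24, a jasmonate-dependent regulator of stamen growth, had 0 unstimulated counts and was at least 70.4-fold higher at 3.17 CPM. In 80 NAC factors 33 rose and 13 fell (41.2 and 16.2%), and in 22 U-box ubiquitin ligases 15 rose and 0 fell, led by PUB22 from 4.33 to 96.6 CPM. Of 24 B-box factors 6 rose (25.0%, near the 28.7% of all genes) and 9 fell (37.5%): BBX14 fell from 178 to 38.9 CPM and BBX15 from 111 to 24.6 CPM.

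Regeneration genes responded unevenly within the hour. Of 16 listed, 15 passed, 10 rose, 1 fell and 4 rose by over 2-fold. As shares of those passing these were 66.7, 6.67 and 26.7%, against 28.7, 24.8 and 7.45% of all genes. WIND1, a factor that drives callus at wounds, read 184, 220.2 and 194 CPM and then 324, 312 and 296 CPM. The groups did not overlap, but the rise was small (0.64 ± 0.072). AT5G61890, an ERF factor of the same subfamily as ERF115, rose from 0.157 to 39.7 CPM (7.86 ± 0.33). RAP2.6L, which acts in the joining of cut stems, rose by 1.63 ± 0.077, and NAC096 by 1.95 ± 0.20. The shoot regulator ESR1 (0.96), WOX11 (-0.37) and PLT5 (0.13) did not pass the test. The single fall, PLT7, lost its call without wounded library 1 or without unstimulated library 2 or 3.

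Immune signalling genes rose moderately: 16 of 18 pattern-triggered immunity and MAP kinase genes rose, 9 by over 2-fold, with a median of 1.12. Over all genes 28.7% rose, 7.45% by over 2-fold. MKK9 (AT1G73500), a MAP kinase kinase, read 6.27, 7.00 and 7.07 CPM and then 57.7, 59.1 and 56.4 CPM. All 3 wounded libraries were higher (3.08 ± 0.11). Other members of the cascade changed less: MPK3 rose by 0.56 ± 0.10, MPK6 by 0.40 ± 0.064, MKK4 by 0.37 ± 0.11 and MEKK1 by 0.57 ± 0.068, and MKK5 (0.028) did not pass. MPK11 (AT1G01560) rose from 0.104 to 8.78 CPM (6.13 ± 0.46). AP2C1, a phosphatase that switches off wound-activated MAP kinases, rose from 8.84 to 41.1 CPM. FRK1, a kinase gene used as a reporter of flagellin, rose by 3.80 ± 0.25, WRKY29 by 3.34 ± 0.12 and the flagellin receptor FLS2 by 1.35 ± 0.12. Upstream, the MAP kinase kinase kinase gene MAPKKK21 had 3 unstimulated counts and 20.0, 17.1 and 16.4 CPM after wounding, a ratio of 391 (95% interval 133 to 1899.6).

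Of the salicylic acid genes, 10 of 12 passing rose and 4 by over 2-fold (median 0.66), against 28.7 and 7.45% of all genes. EDS5, the exporter of its precursor, rose by 2.26 ± 0.11 and SAG101 by 1.67 ± 0.089. The synthase ICS1 rose by 0.52 ± 0.12. PR2 (0.44) and WRKY54 (-0.028) did not pass the test, and PR1 did not pass the filter.

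In the ethylene list 13 of 17 rose (76.5%, against 28.7% of all genes) and 4 fell (23.5%, near the 24.8% of all genes). Rises over 2-fold numbered 3, against 7.45% of all genes. All 3 were ACC synthases, which make the precursor of ethylene. ACS2 rose from 0.504 to 5.88 CPM (3.44 ± 0.31) and ACS11 by 1.79 ± 0.22. ACS8 had 1 count in the unstimulated libraries together and 11.0, 9.14 and 8.60 CPM after wounding, a ratio of 629.7 (95% interval 113 to 24914). The receptors ERS1 and ERS2 rose by 0.32 ± 0.051 and 0.93 ± 0.10.

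Abscisic acid genes were read in 3 lists, with no test between them, against 28.7% rising and 24.8% falling over all genes. In synthesis and breakdown 4 of 10 passing genes rose, 2 by over 2-fold: NCED3, the limiting enzyme of synthesis, from 3.12 to 13.6 CPM, and CYP707A1, which degrades the hormone, from 9.73 to 47.5 CPM. Among 9 receptor genes 5 fell and 2 rose. PYL6 (AT2G40330) read 32.4, 30.7 and 30.3 CPM in unstimulated and 4.49, 4.60 and 3.87 CPM in wounded libraries. It was lower in all 3 wounded libraries and had the steepest fall among genes with a symbol and a mean of at least 5 CPM (-2.86 ± 0.13, edgeR adjusted p = 1.86e-19). PYL4, PYL1 and PYR1 fell by 1.01, 0.96 and 0.81, and PYL7 rose by 1.07 ± 0.10. Of 18 phosphatases and targets 10 rose, 3 fell and 7 rose by over 2-fold. RD29A (AT5G52310), a gene of drought and cold, read 155, 128 and 135 CPM and then 973, 948 and 921 CPM. Its groups were far apart (2.76 ± 0.26), and RD20, a lipid droplet protein, rose from 0.488 to 26.4 CPM. KIN1 and KIN2 rose by 3.22 ± 0.24 and 2.91 ± 0.19 and the phosphatase ABI1 by 1.32 ± 0.076. HAI1 (0.32), PP2CA (-0.17) and the factor ABF3 (-0.071) did not pass the test. HAI3 fell from 0.313 ± 0.260 to 0.0311 ± 0.0283 CPM (SD, n = 3 each), on 21 and 2 counts in all, and its groups overlapped. Its call over 2-fold was lost with DESeq2's Wald test and without wounded library 1.

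Defence chemistry rose in its nitrogen and sulfur branches. All 14 indole glucosinolate and camalexin genes rose, 10 by over 2-fold (median 1.50). CYP79B3 (AT2G22330), at the committed step from tryptophan, read 51.6, 59.2 and 56.4 CPM and then 292, 271 and 293 CPM. The wounded libraries were all higher (2.36 ± 0.079), as for CYP79B2 (1.42 ± 0.084), CYP83B1 (1.51 ± 0.12) and SUR1 (1.18 ± 0.058). Of the 8 tryptophan synthesis genes 7 rose. ASA1, the feedback-regulated first enzyme, rose from 64.8 to 355 CPM and ASB1 by 2.03 ± 0.086. Aliphatic glucosinolate genes rose less, 8 of 10 with a median of 0.57. CYP79F1 rose by 0.89 ± 0.077 and BCAT4 by 0.82 ± 0.079, and the regulator MYB28 fell by 1.04. In sulfate assimilation, glutathione and ascorbate, 10 of 12 rose and 2 fell. MDAR3 (AT3G09940), a monodehydroascorbate reductase, read 15.3, 12.7 and 14.4 CPM and then 304, 285 and 302 CPM. The groups were far apart, and its change was the largest of that list (4.39 ± 0.24), followed by VTC5, of ascorbate synthesis (2.61 ± 0.075), and APK2, which makes the sulfate donor of glucosinolates (1.87 ± 0.092). APR2, a sulfate-reducing enzyme, fell from 57.7 to 22.2 CPM.

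Of 13 phenylpropanoid and lignin genes 10 rose and 1 fell. PAL1, the entry enzyme, rose from 119 to 360.2 CPM, C4H from 167 to 449.8 CPM and CAD5, at the last step to lignin monomers, from 88.0 to 290.3 CPM. CCR1 (-0.069) and CCOAOMT1 (-0.0042) did not pass the test. Of 10 suberin and callose genes 2 rose and 3 fell, shares near the 28.7 and 24.8% of all genes. ASFT, which adds ferulate to suberin, fell from 34.5 to 12.6 CPM. Callose synthase PMR4 rose by 0.49 ± 0.057. Among flavonoid genes 3 of 8 passing rose and 2 fell. Chalcone synthase (CHS) fell by 0.49, and F3H, DFR and LDOX did not pass the filter.

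Oxidative stress and detoxification genes rose in 20 of 22 cases, 12 by over 2-fold (median 1.53). GSTU4 (AT2G29460), a tau glutathione transferase, read 0.731, 0.492 and 0.652 CPM and then 53.0, 51.4 and 56.5 CPM. All 3 wounded libraries were far above the others (6.40 ± 0.22). In the tau family 18 of 26 passing genes rose, 3 fell and 11 rose by over 2-fold, with ERD9 from 3.24 to 288 CPM and GSTU5 from 94.2 to 1015 CPM. CYP81D11, a P450 induced by foreign chemicals, rose from 2.78 to 54.3 CPM, and OPR1, a reductase of reactive lipids, from 32.1 to 215 CPM. Cytosolic peroxidase APX1 rose by 0.71 ± 0.055, and catalase CAT3 (2116 and 2264 CPM) did not pass the test. Of 11 passing heat and chaperone genes 4 rose (36.4%, against 28.7% of all genes) and 1 fell (9.09%, against 24.8%). All 4 rose by over 2-fold, as did 7.45% of all genes. The 4 were the small heat shock proteins HSP17.6II (4.46 ± 0.33), HSP17.6A (3.73 ± 0.48) and HSP17.4 (3.20 ± 0.38) and the endoplasmic reticulum chaperone BIP3 (2.07 ± 0.38). HSP101, HSP70 and HSP90.1 (0.10, -0.30 and 0.49) did not pass.

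Genes of photosynthesis and growth fell more often than they rose. Photosynthesis genes fell in 17 of 19 cases, none by over 2-fold, with a median of -0.43. Their summed level was 34810 to 35740 CPM in unstimulated and 25630 to 26410 CPM in wounded libraries. RBCS1A, a small subunit of Rubisco, read 11812, 12219 and 12672 CPM and then 9044, 8684 and 9433 CPM. All wounded libraries were lower, yet the change was modest (-0.43 ± 0.064), and reads shared by the near-identical RBCS copies were not counted. RCA, which activates Rubisco, fell by 0.48 and PSAD1, of photosystem I, by 0.68. In the auxin and expansin list 11 of 24 passing genes fell (45.8%, against 24.8% of all genes), 4 by over 2-fold. Rises numbered 7 (29.2%, near the 28.7% of all genes). EXPA1 (AT1G69530), which loosens cell walls, read 330.5, 439.7 and 383 CPM and then 91.3, 101 and 95.1 CPM. It fell in all wounded libraries (-2.01 ± 0.13), as did EXPA5 (-1.52 ± 0.11) and EXPA8 (-1.97 ± 0.29), and in the alpha expansin family 10 of 19 passing genes fell and 1 rose. Of 61 passing SAUR genes, early auxin targets of cell growth, 29 fell and 10 rose, 13 and 4 by over 2-fold. By contrast the auxin-conjugating GH3.3 rose from 52.4 to 252 CPM and the repressor gene IAA2 from 57.0 to 185 CPM.

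Cytokinin and brassinosteroid genes fell in 8 of 14 cases and rose in 0. The list had 1 rise with DESeq2's scaling, with its Wald test, and without wounded library 1. ARR6, a cytokinin response regulator, fell by 1.03, BR6OX2, of brassinosteroid synthesis, by 1.03, and IPT3, of cytokinin synthesis, from 31.5 to 6.93 CPM. Other ranked falls were FTM1, an acyl carrier protein desaturase, from 13.4 to 2.19 CPM, NAS4, of nicotianamine synthesis, from 11.2 to 1.99 CPM, the peptide gene RGF9 from 28.0 to 7.38 CPM and the wall enzyme gene XTH31 from 237 to 59.0 CPM. Of the clock genes, 3 of 12 rose (25.0%, near the 28.7% of all genes) and 2 fell (16.7%, against 24.8% of all genes). GI fell by 0.67, while the morning genes CCA1 (-0.45) and LHY (-0.20) did not pass the test. Among root markers SCR fell by 0.50 and SHR rose by 0.26 ± 0.084, the latter neither without wounded library 1 nor with library size alone. SEP3 fell by 0.71 and AG from 0.807 to 0.309 CPM.

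**Figure D3:**
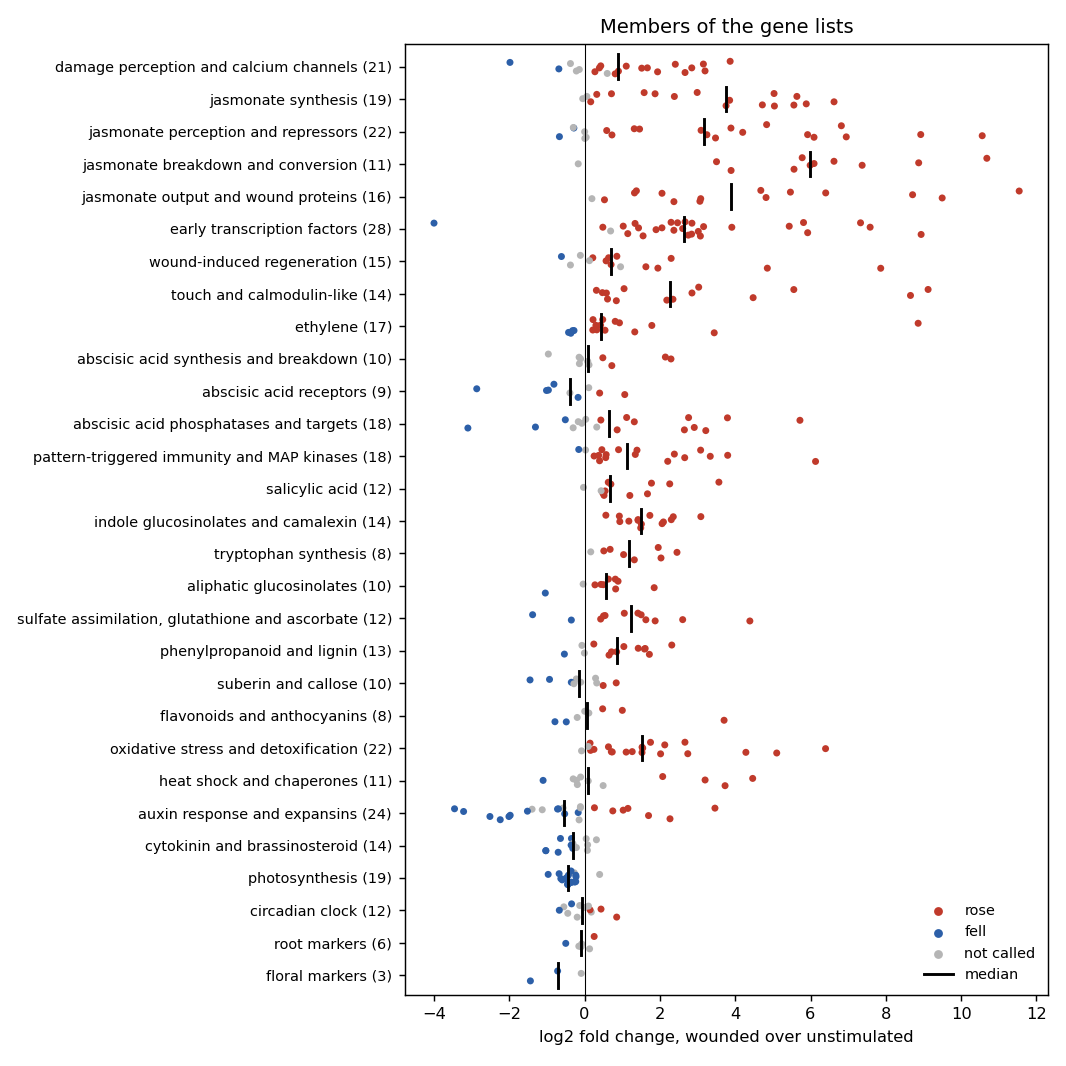
Points are the 413 plotted members of 29 gene lists by their log2 fold change of wounded over unstimulated seedlings (3 libraries each). They are red where the gene rose, blue where it fell and grey without a call. Black bars mark list medians, and parentheses give the members of each list that passed the filter. The 4 jasmonate lists have medians of 3.17 to 5.99, and photosynthesis genes cluster just below 0 with a median of -0.43.

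Against flg22, a peptide of bacterial flagellin given for 1 h in the same set, wounding differed for 10242 of 21223 genes (48.3%), with 5257 higher (24.8%) and 4985 lower (23.5%). Over the unstimulated libraries flg22 raised 29.8% and lowered 30.6% of genes. Both stimuli share the unstimulated libraries, so each response is given beside the other and the test is the direct contrast of wounded with flg22 libraries. With library size alone the split became 8729 higher and 3596 lower, the median over all genes moving to 0.148. Jasmonate genes differed widely. Wounding was higher for 17 of 19 synthesis genes, 15 of 22 perception genes, 10 of 11 breakdown genes and 14 of 16 output genes, and the medians after flg22 were 0.06, 0.00, 0.08 and 0.45. AOS read 32.1, 23.6 and 24.6 CPM after flg22, under the wounded libraries and no higher than the unstimulated ones, a contrast of 5.49 ± 0.12 (edgeR adjusted p = 3.33e-25). Not every jasmonate gene followed: LOX4 rose by 6.63 ± 0.20 with flg22, more than with wounding (contrast -0.99 ± 0.14), and JAZ1 by 4.05 ± 0.15. RNS1, a secreted ribonuclease, rose from 0.936 to 172 CPM after wounding and read 0.828, 0.593 and 0.761 CPM after flg22. Its contrast was 7.87 ± 0.17. The ranking that named RNS1 kept only genes whose wounding and flg22 libraries did not overlap.

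The other direction held for immune genes. Wounding was lower for 15 of 18 pattern-triggered immunity and MAP kinase genes, whose median after flg22 was 2.17, and for 8 of 12 salicylic acid genes. FRK1 rose by 7.46 ± 0.20 with flg22 and 3.80 ± 0.25 with wounding (contrast -3.66 ± 0.13). CYP81F2, which modifies indole glucosinolates, read 1620.5, 1278 and 1472 CPM after flg22 against 11.6, 12.6 and 13.2 CPM after wounding. The peroxidase gene PER4 read 1069.5, 977 and 1049.8 CPM with flg22 and 19.3, 14.6 and 17.5 CPM with wounding. Both genes come from the ranking that kept only genes whose flg22 and wounded libraries did not overlap, so their separation is no further result. Among cysteine-rich receptor kinases 30 of 42 passing genes were lower with wounding and 3 higher. For the MYB regulators of glucosinolates, MYB51, of the indole branch, rose by 5.78 ± 0.13 with flg22 and 0.57 ± 0.14 with wounding, and MYB34, of the same branch, responded by -2.25 ± 0.12 to flg22 and rose by 0.92 ± 0.10 with wounding. All 10 aliphatic glucosinolate genes were higher with wounding, having fallen with flg22 (median -1.50).

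MeJA was given without injury. It was applied in another set with its own unstimulated libraries, so the difference between the responses was tested in 1 fit of 15 libraries. The responses differed for 8278 of 20699 genes (40.0%), wounding being higher for 4456 (21.5%) and lower for 3822 (18.5%). MeJA itself raised 16.2% and lowered 17.6% of genes. For overlaps, the MeJA and ABA lists hold genes with an adjusted p under 0.05 and a fitted fold of at least 2. That is a looser call than the test against a fold of 2 used for wounding. Of 1532 genes that rose by over 2-fold after wounding and were tested in both, 731 were on the MeJA list of rises. They made up 47.7% of the wounding list and 61.5% of the 1189 on the MeJA list, and 43 were on the MeJA list of falls. Among all genes tested in both, 5.76% were on the MeJA list of rises. Of the falls 81 were shared, 39.3% of the 206 after wounding and 10.6% of the 764 on the MeJA list of falls. That list held 3.70% of all genes tested in both, and 0 of the 206 were on the MeJA list of rises. Jasmonate list medians were 3.68, 3.56, 5.70 and 4.57 for synthesis, perception, breakdown and output with MeJA against 3.76, 3.17, 5.99 and 3.88 with wounding. In the perception list 8 of 22 genes responded less to wounding and 1 more. OPR3 rose by 4.96 ± 0.12 with MeJA and by 4.72 ± 0.10 with wounding, a tested difference of -0.23 ± 0.15 (edgeR adjusted p = 0.243). The differences for MYC2 (-0.19 ± 0.16) and CYP94B1 (-0.17 ± 0.26) did not pass the test either. LOX3, AOC3 and CYP94B3 rose more with wounding, the tested differences being 2.39 ± 0.29, 2.87 ± 0.12 and 3.54 ± 0.20. LOX2 rose less (-1.52 ± 0.11).

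Some genes that rose with wounding had little or no rise with MeJA, though several of them rose with another stimulus. JAR1 responded by 0.11 ± 0.057 to MeJA and by 2.38 ± 0.072 to wounding, a difference of 2.28 ± 0.08 (edgeR adjusted p = 2.97e-14). RNS1 read 0.888, 0.821 and 1.10 CPM in unstimulated and 186, 153 and 178 CPM in wounded libraries, and its MeJA response was -0.82 ± 0.26. It was high in every wounded library (difference 8.31 ± 0.33). ERD9, a tau glutathione transferase, responded by -0.018 ± 0.13 to MeJA, a difference of 6.50 ± 0.17. RLP6, a receptor-like protein, rose from 0.422 to 35.0 CPM and responded by 0.52 ± 0.31 to MeJA. GA2OX6, which inactivates gibberellin, rose from 6.82 to 182 CPM while MeJA moved it by -1.69 ± 0.13, and TPS11, of trehalose metabolism, from 14.1 to 214 CPM while MeJA moved it by -1.15 ± 0.16. With flg22, GA2OX6 rose by 5.06 ± 0.15 and TPS11 by 2.37 ± 0.13, while RNS1, ERD9 and RLP6 had no call. With ABA, ERD9, GA2OX6, RNS1 and TPS11 rose by 4.12 ± 0.091, 2.38 ± 0.086, 2.31 ± 0.17 and 1.45 ± 0.14, and RLP6 had no call. In the pattern-triggered immunity list 13 of 18 genes responded more to wounding. MeJA gave the larger response for NRT1.8, a nitrate transporter (7.21 ± 0.10 against 3.89 ± 0.14), BGLU24 (6.92 ± 0.25 against 4.27 ± 0.32) and ARGAH2, an arginase (3.52 ± 0.14 against 1.41 ± 0.092). CAX1, a vacuolar calcium exchanger, fell from 523 to 148 CPM with wounding and responded by 0.30 ± 0.062 to MeJA. Tryptophan synthesis genes also responded more to MeJA, in 7 of 8 cases.

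**Figure D4:**
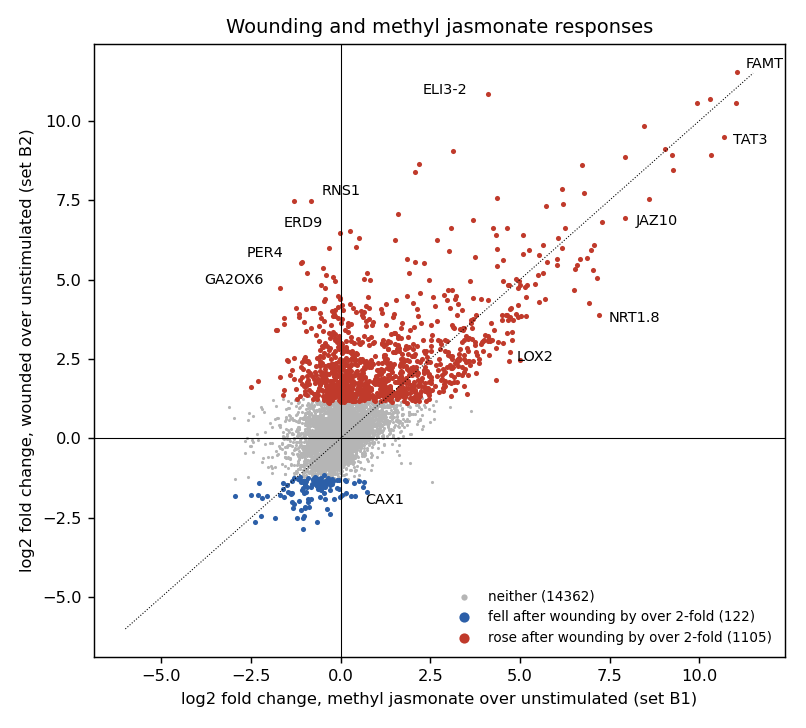
Each point is 1 of 15589 genes with at least 5 CPM as the mean of the 2 group means, by its log2 fold change after methyl jasmonate (set B1) and after wounding (set B2), with red and blue for genes that rose (1105) or fell (122) by over 2-fold after wounding and a dotted line of equal response. FAMT, TAT3 and JAZ10 lie near the line, RNS1, ERD9, PER4 and GA2OX6 lie high near or left of 0 on the MeJA axis, and NRT1.8 lies below the line.

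ABA gave a less similar response. The responses differed for 8924 of 20699 genes (43.1%), wounding being higher for 4715 (22.8%) and lower for 4209 (20.3%). ABA itself raised 18.0% and lowered 13.7% of genes. Of the 1532 genes that rose by over 2-fold after wounding, 325 were on the ABA list of rises, made by the same looser call as for MeJA. They made up 21.2% of the wounding list and 29.95% of the 1085 on the ABA list, and 95 were on the ABA list of falls. Among all genes tested in both, 5.26% were on the ABA list of rises. Of the falls 47 were shared, 22.8% of the 206 after wounding and 7.72% of the 609 on the ABA list of falls. That list held 2.95% of all genes tested in both, and 23 of the 206 (11.2%) were on the ABA list of rises. All 18 phosphatase and target genes responded less to wounding, with a median of 0.65 against 4.17 under ABA. RD29A responded by 4.83 ± 0.30 to ABA, and RAB18, a dehydrin, by 5.75 ± 0.29 against 2.65 ± 0.48 to wounding. HAI3 responded by 5.52 ± 0.32 to ABA against -3.10 ± 0.86 to wounding, the latter on few counts and with overlapping groups. NAC019 responded by 7.52 ± 0.50 to ABA, and its difference from wounding, -0.18 ± 1.21, did not pass the test (edgeR adjusted p = 0.922). The receptors PYL6 and PYL4 fell under ABA too (-6.65 ± 0.35 and -4.32 ± 0.061), and further than with wounding.

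**Figure D5:**
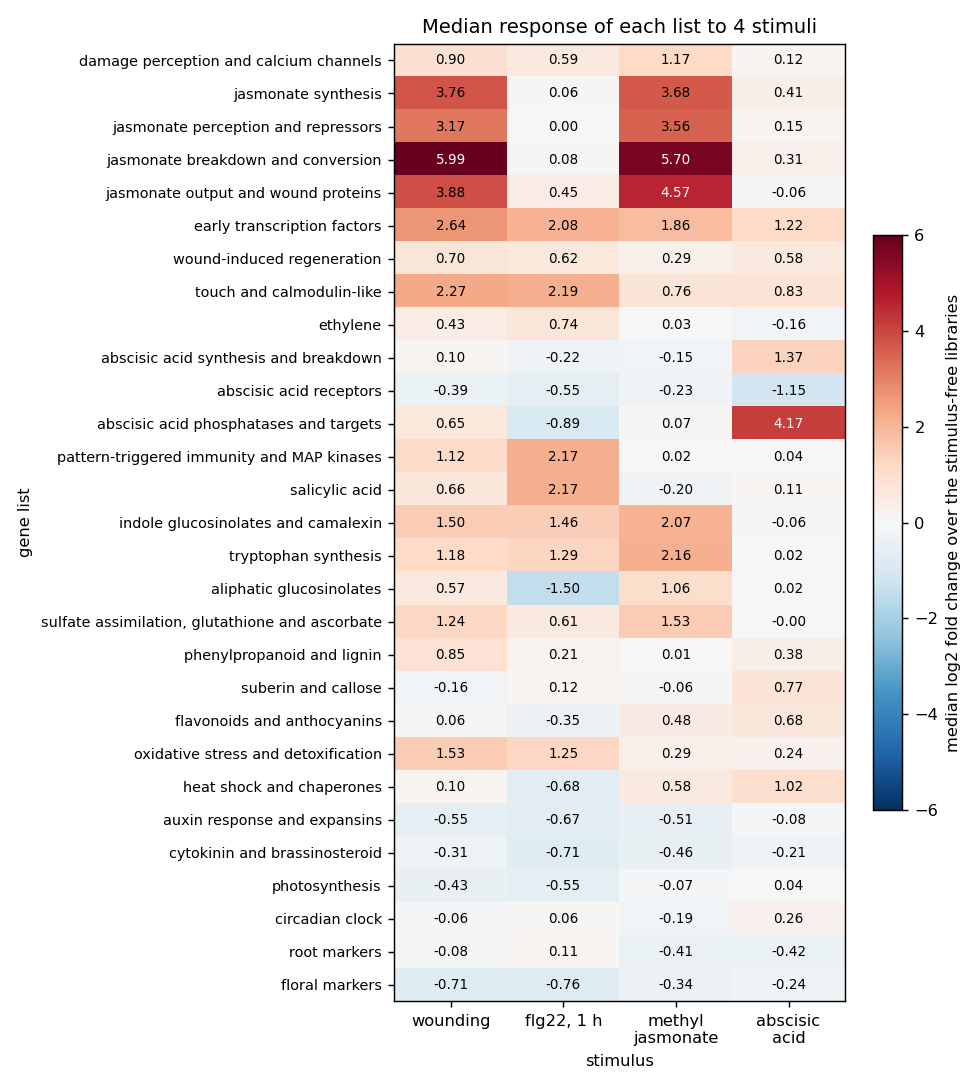
Cells give the median log2 fold change of each of 29 gene lists (rows) after wounding, flg22 for 1 h, methyl jasmonate and abscisic acid (columns), each over the unstimulated libraries of its own set and coloured from blue (lower) to red (higher). Wounding and MeJA share high values in the 4 jasmonate lists, whereas immune and salicylic acid lists are highest with flg22 (2.17) and ABA targets with abscisic acid (4.17).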

How the data were processed

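Gene counts per library were deposited by the authors as raw read counts, made with HTSeq after TopHat alignment to TAIR10, per the submitters' processing notes. Versions and settings are not given in the sources used here. The kit named in the labels does not mark strand, so overlapping antisense genes cannot be told apart. Reads outside genes or without a unique place (1.03 to 1.31% and 6.47 to 12.8% of the totals in the 6 libraries) were left out. Symbols and coordinates came from RefSeq TAIR10.1, which held 31912 of the 32678 loci.

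The 36 libraries of set B2 were fitted together in edgeR 4.0.16 (R 4.3.3) with 1 mean per group, filterByExpr by group, TMM normalisation and robust quasi-likelihood F tests, two-sided, and changes over 2-fold were tested with glmTreat. Intervals and the floor of 3 counts cover counting error only, since reads carry no molecular identifiers. Responses to MeJA and ABA came from 1 fit of 15 WT libraries of B1 and B2. The 29 lists held 433 genes, of which 416 passed the filter, and 18 families were read from gene symbols. The members and lists were chosen with earlier results of these data known. Beyond the listed members and families, named genes were the 15 per direction with the largest fold change called over 2-fold. They needed a mean of at least 5 CPM, a symbol and no overlap. For each other contrast they were 10 per direction with an adjusted p under 0.05 there, among genes changed over 2-fold by wounding. These also needed a mean of at least 5 CPM and a symbol. Against flg22 they further needed no overlap of wounded and flg22 libraries. Alternatives were DESeq2 1.42.0 (its scaling and its Wald test), other filters, fewer libraries, and 1 chosen after seeing the data, the list counts without wounded library 1. Scripts were tested on simulated data.

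Same-numbered wounded and unstimulated libraries deviated together with correlations of 0.088, 0.057 and 0.213, against -0.112 to 0.013 for libraries of different number. Between wounded and flg22 libraries the same-numbered values were -0.031, -0.066 and 0.231, against -0.115 to 0.136 for different numbers. A shared replicate block is possible, but only library 3 correlated best with its own number in both comparisons. That library was also the deepest of each group. The labels describe no pairing, so replicate numbers were not taken as pairs, and counts with them as a block are given below.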

Additional observations from a re-analysis of the deposited data

How the results depend on the processing

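The total of called genes in each comparison stayed within 1.5 times its reported value under each alternative run: 10297 to 12122 for wounding, 1528 to 1802 for changes over 2-fold, 9298 to 12325 against flg22, 7451 to 8805 against MeJA and 8099 to 9366 against ABA. Leaving out 1 library gave 10297 to 10827 and 1713 to 1769 for the first 2, and without wounded library 1 there were 10480, of which 10210 were among the reported calls. With library size alone the share of called genes that were higher after wounding moved from 53.7 to 41.6%, and against flg22 from 51.3 to 70.8% (8729 genes higher in place of 5257). DESeq2's Wald test gave 1393 rises and 135 falls over 2-fold, in place of 1582 and 206. With the replicate number as a block, a pairing that the labels do not describe, the counts were 11713, 1802, 10629, 8805 and 9366. The numbers correlated at 0.088, 0.057 and 0.213 between wounded and unstimulated libraries, each library best with its own number. Between wounded and flg22 libraries this held for number 3 alone. Of 494 results on single genes, 0 reversed, 444 kept their side of the threshold throughout, 32 lost a call under some alternative and 18 gained one. Without wounded library 1, the regeneration list lost its single fall, the root markers lost their single rise and the cytokinin and brassinosteroid list gained 1 rise. With DESeq2's scaling and with its Wald test, that last list gained 1 rise as well. Among genes that rose at an adjusted p under 0.05, CACGTG was in 12.0% and CGCGTT in 6.35% of promoters. Among genes that rose by over 2-fold, CGCGTT was in 6.25% with the window of 250 bases, and in 2.87% of all promoters. With 300 bases these shares were 8.29 and 3.82%, so the shorter window lowered both. The cause of the other shifts was not tested. Genes under a few counts per library, such as those at 0 without wounding, carry bounds or wide intervals only, and 17 of 433 listed genes had at most 7 counts in any of the 6 libraries and were not tested.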

Other observations

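The genes that responded most were compact. Protein-coding genes that rose by over 2-fold had a median of 3 exons and a median mRNA of 1593 bases in the TAIR10.1 annotation, and 28.1% had 1 exon. Those that fell by over 2-fold had a median of 2 exons and 1489 bases, and 37.0% had 1 exon. The medians over all tested genes were 4 exons and 1725 bases, and 16.4% had 1 exon. Single-exon families such as the SAUR genes were among the falls, and the part of such families in the shares was not tested.

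Genes that rose lay next to each other in places. Of 1580 genes that rose by over 2-fold and had a tested next neighbour, 277 (17.5%) had a neighbour that rose by over 2-fold too, against 7.45% of all genes tested, and of 206 that fell, 15 (7.28%) had a falling neighbour against 0.971%. A run of 8 rose on chromosome 2, chr2:12617936-12632538, holding the tau glutathione transferases GSTU1 to GSTU7 with AT2G29430 and log2 fold changes from 1.53 to 6.40. GSTU6 went from 5.40 to 152 CPM and GSTU2 from 1.56 to 6.30 CPM. On chromosome 4, chr4:12137995-12160279, the receptor kinase genes CRK10 to CRK15 rose together (1.78 to 4.97), CRK13 from 5.36 to 73.5 CPM and CRK12 from 3.25 to 35.8 CPM. Family members side by side are similar in sequence, and reads that matched more than 1 place were not counted.

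Some iron genes fell: bHLH38 fell from 2.00 to 0.391 CPM and BHLH100 from 0.674 to 0.0494 CPM, both activators of iron uptake, and NAS4, which makes an iron chelator, from 11.2 to 1.99 CPM. These were chosen after their values were seen. Of the ranked genes, TPPB, a trehalose phosphate phosphatase, fell from 20.2 to 5.70 CPM.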
